A study of Schizosaccharomyces pombe with 9 samples.

Results

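The small nuclear RNA (snRNA) and small nucleolar RNA (snoRNA) genes of fission yeast were followed through a poly(A)+ RNA-seq experiment. Members were all rows of the count table whose systematic ID begins with SPSNORNA. or SPSNRNA., which gave 60 of 6988 rows, 53 with the first prefix and 7 with the second. RefSeq annotated 55 of them as snoRNA and 5 as snRNA. The difference from the prefixes comes from *snu3* (SPSNRNA.03) and *snu32* (SPSNRNA.07), which both encode U3, a snoRNA.

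snRNAs form the core of the spliceosome. U1 and U2 recognise the intron, U4 holds U6 until the spliceosome is activated, U6 takes part in catalysis and U5 holds the exons in place. snoRNAs act on precursor ribosomal RNA in the nucleolus, where box C/D snoRNAs mostly guide ribose methylation, box H/ACA snoRNAs mostly guide pseudouridylation, and a few such as U3, U14 and snR30 are needed for cleavage of the precursor. The mature RNAs of both kinds mostly lack a poly(A) tail, whereas precursors and RNAs marked for decay by the exosome can carry one, so counts in a poly(A)+ library report the RNA that passed the selection and not the cellular amount of the mature RNA.

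The experiment compared 3 strains of mating type *h*-, with 3 libraries each: a strain labelled *ecl123*Δ (*ecl1*Δ::hygMX *ecl2*Δ::natMX *ecl3*Δ::kanMX), an *ecl3*Δ strain (*ecl3*Δ::kanMX) and the wild type (WT). *ecl1*, *ecl2* and *ecl3* encode small related proteins known for extending chronological lifespan. All cultures were in vegetative logarithmic growth in YES, a rich medium, at 30 °C, and each genotype is represented by 1 strain, so that effects of the deletions and of other differences between the strains cannot be told apart. Libraries were sequenced to between 23254907 and 34871124 counts.

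The *ecl3* row held 0, 0 and 1 counts in the libraries labelled *ecl123*Δ and 0, 0 and 0 in *ecl3*Δ, against 23, 15 and 42 in WT. The *ecl1* row did not bear out the *ecl123*Δ label, with 2840, 2640 and 3557 counts in the libraries labelled *ecl123*Δ, against 468, 393 and 489 in WT. Nor did the *ecl2* row, with 2242, 1752 and 2358 counts against 1580, 1227 and 1830. The paper reports Southern blots of the single disruptions, and selection of the triple strain by the drug markers put in place of the ORFs. The disruptions were made in the ORFs, and of the 820 exon bases that RefSeq gives *ecl1* and the 1509 it gives *ecl2*, 577 and 1254 lie outside the coding sequence. Counts from those bases check nothing about the deletion, and where in the rows the counts lie was not tested. One library also stood apart. The mean squared difference between replicates, scaled so that counting noise alone gives 1, was 90.5 and 46.5 over the members for the 2 pairs that hold replicate 3 of the libraries labelled *ecl123*Δ, against 13.7 for the remaining pair. It was 2.07 to 5.33 between *ecl3*Δ libraries and 2.06 to 2.45 between WT libraries. Over all rows the same 2 pairs gave 242 and 213, against 36.3. Values without this library stand beside the main results it touches.

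The members divide by structure. RefSeq names 19 as box H/ACA RNAs, and snR30, a textbook member of the class, made 20. A further 29 were placed in a box C/D layout because CTGA, the letters of box D, stand in their last 20 bases. U3 accounts for 2 rows, the spliceosomal snRNAs for 5, and 4 snoRNA rows stayed unclassified. The box C letters TGATGA, which the layout rule did not use, stood in the first 20 bases of 17 of the 29, while 0.759% of 20-base windows of both genome strands hold them. ACA stood in the last 20 bases of 16 of the 20 box H/ACA RNAs, against 26.0% of such windows, and 10 of the 20 had it ending exactly 3 bases from the annotated end. CTGA is found in 5.52% of the windows. A match is a description of letters and not proof of a working box. All sequences below are RNA-sense letters written as DNA, 5′ to 3′, from RefSeq ASM294v3.

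The 4 most abundant box C/D layout members are shown because they carry most of that class's counts. Capitals mark TGATGA near the start and CTGA near the end.
sno52: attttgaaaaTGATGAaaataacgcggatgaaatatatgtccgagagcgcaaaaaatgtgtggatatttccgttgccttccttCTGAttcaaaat
snoU14: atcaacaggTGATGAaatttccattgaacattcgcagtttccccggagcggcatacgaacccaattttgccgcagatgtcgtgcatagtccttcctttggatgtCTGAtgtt
snr79: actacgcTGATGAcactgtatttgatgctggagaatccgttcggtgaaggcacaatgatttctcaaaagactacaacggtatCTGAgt
snoZ16: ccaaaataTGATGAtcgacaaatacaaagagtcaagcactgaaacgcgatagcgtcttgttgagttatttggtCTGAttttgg

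For the box H/ACA class, snR30 is the most abundant member of all and is shown by its last 120 of 326 bases, and snR101 is shown whole as the member whose counts were steadiest. Capitals mark each ACA in the last 20 bases.
snR30: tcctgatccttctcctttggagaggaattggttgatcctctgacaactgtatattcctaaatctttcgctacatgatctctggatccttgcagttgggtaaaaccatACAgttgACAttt
snR101: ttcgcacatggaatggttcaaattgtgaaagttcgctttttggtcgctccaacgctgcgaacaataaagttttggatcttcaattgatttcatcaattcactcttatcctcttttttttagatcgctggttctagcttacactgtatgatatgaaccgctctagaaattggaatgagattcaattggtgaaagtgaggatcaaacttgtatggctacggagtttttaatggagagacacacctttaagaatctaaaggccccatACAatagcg

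The U5 snRNA is shown because it had the smallest p of all members in both comparisons with WT. Capitals mark TTTTTG, the letters of a binding site for the Sm protein ring.
snu5: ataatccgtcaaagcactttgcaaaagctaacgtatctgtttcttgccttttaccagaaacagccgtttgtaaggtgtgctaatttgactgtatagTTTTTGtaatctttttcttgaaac

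TTTTTG was found in 3 of the 5 snRNA rows, those of U1, U2 and U5, and in 11.0% of windows of 104 bases, the median length of the 60 members, of both genome strands. The 2 U3 rows are shown because their annotated spans differ. Capitals mark the longest stretch they share, which is 31 bases long.
snu3: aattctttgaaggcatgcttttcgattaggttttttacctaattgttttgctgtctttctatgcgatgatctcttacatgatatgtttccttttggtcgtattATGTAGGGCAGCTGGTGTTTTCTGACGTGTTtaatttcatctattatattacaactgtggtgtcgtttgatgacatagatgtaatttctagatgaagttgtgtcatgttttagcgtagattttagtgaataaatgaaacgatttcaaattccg
snu32: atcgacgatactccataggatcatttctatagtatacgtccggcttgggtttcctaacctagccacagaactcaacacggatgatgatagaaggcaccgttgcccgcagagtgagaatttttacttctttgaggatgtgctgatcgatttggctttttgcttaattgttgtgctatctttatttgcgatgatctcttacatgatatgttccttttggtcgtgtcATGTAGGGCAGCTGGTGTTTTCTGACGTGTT

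The shared stretch ends at the last base of *snu32* but at base 134 of *snu3*. The first 90 bases of *snu32* were found unchanged on the same strand, beginning 122 bases upstream of the annotated start of *snu3*. Aligned from there, the 2 loci matched in 233 of 256 columns (91.0%), against 50.0% when aligned as annotated. Of that second U3 copy, 133 bases lie inside the *snu3* row. The 2 rows therefore do not measure the same part of U3, and their levels should not be compared directly. *snu32* was also the single member with 51-base stretches, the length of a read, that occur elsewhere in the genome, with 19.5% of its windows repeated. These windows are those of the first 90 bases, which recur upstream of the *snu3* row.

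Detection was uneven. Of the 60 members, 51 had at least 1 count in some library, 45 in all 9, 35 had at least 10 counts in all 9 and 14 had at least 100 in all 9. The filter on low counts kept 44 for testing. The 9 members with 0 counts in every library were all snoRNAs: snoZ3, snoZ4, snoZ5, snoZ7, snoZ8, snoZ30, snoR68, snR97 and sno16. A count of 0 allows a level of up to 0.0117 CPM (counts per 1000000 counts of the library), which is 3 counts over the 256063864 counts of the 9 libraries. These floors, and the interval given further on, cover counting error only.

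Of these 9, all but sno16 lie wholly inside an exon of another row of the table on the same strand, and no member with counts does. The other snoZ members but snoZ30 lie in SPNCRNA.659, a transcript named snoZ, and snoZ30, snoR68 and snR97 lie in SPNCRNA.1483, SPNCRNA.1650 and SPNCRNA.617. The host rows had 2461, 5164, 886 and 4693 counts in all, so transcripts over these loci were in the libraries. A read inside such a member falls on 2 rows at once, and how HTSeq was set to treat such reads is not given in the sources used here, so a 0 in these rows is no evidence that the RNA was absent. The deposited rows give no other view of the 8. The 3 of them that hold TGATGA in the first 20 bases and CTGA in the last 20 are shown, with capitals as above. snoZ3, snoZ4, snoZ5 and snoZ7 hold CTGA but not TGATGA there, and snR97 is a box H/ACA RNA.
snoZ8: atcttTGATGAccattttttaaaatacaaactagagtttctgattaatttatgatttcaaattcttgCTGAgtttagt
snoR68: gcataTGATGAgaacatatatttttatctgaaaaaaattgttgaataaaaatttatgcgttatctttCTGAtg
snoZ30: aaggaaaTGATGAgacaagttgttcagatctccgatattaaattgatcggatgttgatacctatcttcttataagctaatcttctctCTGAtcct

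The remaining members fell into 3 arrangements. Of the 52 members outside such exons, 10 lie in introns of coding genes, 7 in primary transcripts that RefSeq annotates but that have no row in the count table, and 35 in neither. All 10 intronic members had counts, with totals over 9 libraries of 11 to 759. All 7 in primary transcripts without a row also had counts, 9 to 2319, among them snR41, snR70 and snR51b in 1 shared transcript. The 35 others had totals of 0 to 18717 and held 88.2% of all member counts, against 8.93% in the primary transcripts and 2.88% in introns. Median levels per length, as mean CPM per 1000 bases over 9 libraries, were 24.3 for the 35 others, 38.0 for those in primary transcripts and 9.36 for those in introns. The ranges overlapped widely, 0 to 357, 0.208 to 104.5 and 0.948 to 35.8.

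**Figure D1:**
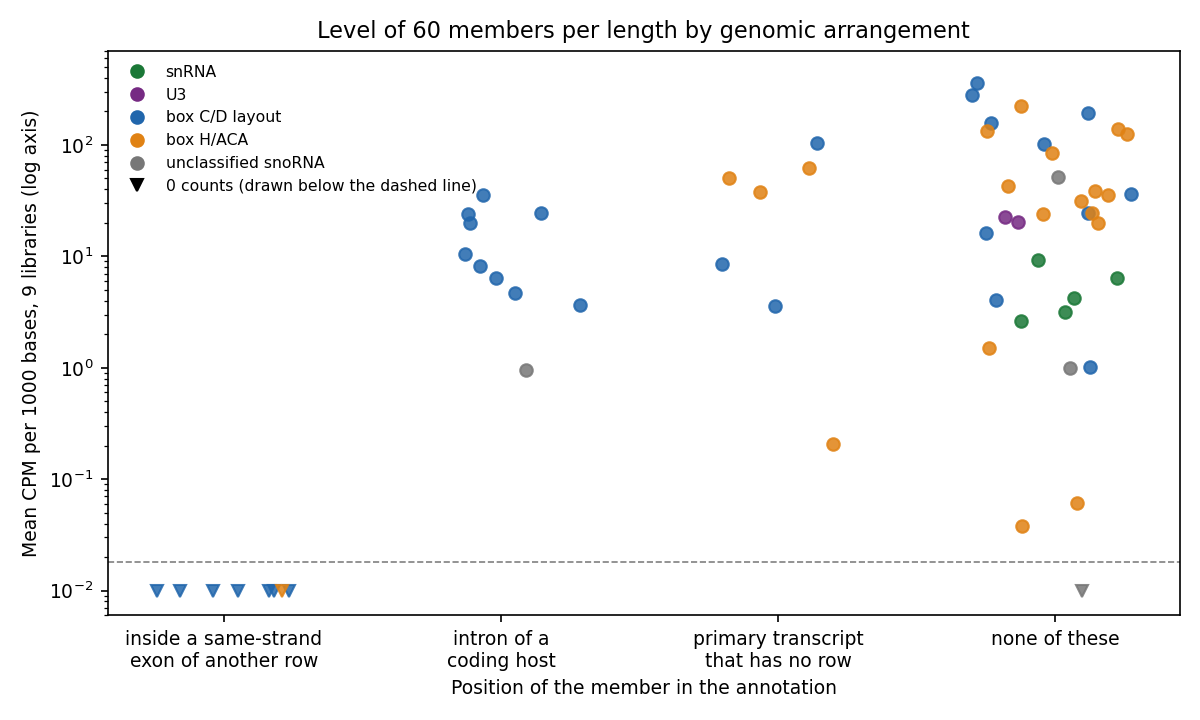
Mean CPM per 1000 bases over 9 libraries (log axis) for each of the 60 members, grouped by position in the RefSeq annotation and coloured by class; triangles under the dashed line are members with 0 counts. All 8 members inside an exon of another row are at 0, while 51 of the other 52 have counts.

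Among the intronic members, snoU24b, whose host *cpc2* encodes a ribosome-bound scaffold protein, had 759 counts beside 1030055 for its host, which is 0.737 counts per 1000 host counts. snoZ15 stood out with 34.0 counts per 1000 counts of its host *pfd1*, which encodes a prefoldin subunit. The other 8 had 0.179 (snoR54 in *gua1*) to 3.75 (snoR47 in *fta3*). None of the 10 host genes was called in any comparison.

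The 60 members together took 102233 counts, or 0.0399% of the total. Per library the share was 0.0515%, 0.0411% and 0.0234% in the libraries labelled *ecl123*Δ, 0.0391%, 0.0380% and 0.0387% in *ecl3*Δ, and 0.04155%, 0.0417% and 0.0436% in WT. The 95% Wilson interval of the lowest of these, replicate 3 labelled *ecl123*Δ at 233.8 CPM, was 228.3 to 239.5 CPM. Levels were concentrated in few genes. The 10 most abundant, 6 box H/ACA and 4 box C/D layout, held 71.4% of member counts, and mean CPM spanned 237-fold among the 44 tested. Box H/ACA RNAs held 61.8% of the counts, box C/D layout 33.4%, U3 2.75% and the 5 spliceosomal snRNAs 0.922%. Per length, the spliceosomal snRNAs were low, at 2.64 to 9.27 CPM per 1000 bases, and U3 was at 20.2 and 22.7. Medians were 36.8 for box H/ACA and 8.62 for box C/D layout, which includes 7 members at 0.

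Summed snoRNA rows had 497, 397 and 228 CPM in the libraries labelled *ecl123*Δ (374 ± 136, SD, n = 3), 377, 366 and 373 in *ecl3*Δ (372 ± 5.65) and 396, 400 and 418 in WT (405 ± 11.98). The *ecl3*Δ libraries were all below all WT libraries, with a difference of means of -8.11%, whereas those labelled *ecl123*Δ lay on both sides of WT. Summed snRNA rows, U3 included, had 17.4, 13.5 and 5.79 CPM in the libraries labelled *ecl123*Δ (12.2 ± 5.89), 13.7, 14.5 and 13.6 in *ecl3*Δ (13.9 ± 0.472) and 19.4, 17.03 and 17.2 in WT (17.9 ± 1.31). Again *ecl3*Δ did not overlap WT, with a difference of means of -22.0%, and replicate 1 labelled *ecl123*Δ lay within the WT range. With 3 libraries a strain the smallest 2-sided p an exact permutation test allows is 0.1, and *ecl3*Δ against WT reached it for the snoRNA rows and for the snRNA rows. Groups that do not overlap always reach it, so this p adds nothing to the non-overlap. The libraries labelled *ecl123*Δ against WT gave p = 0.8 and 0.3 and against *ecl3*Δ p = 1.0 and 0.7 in the same exact permutation test. The 6 raw p-values are not adjusted, and none can pass 0.05.

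**Figure D2:**
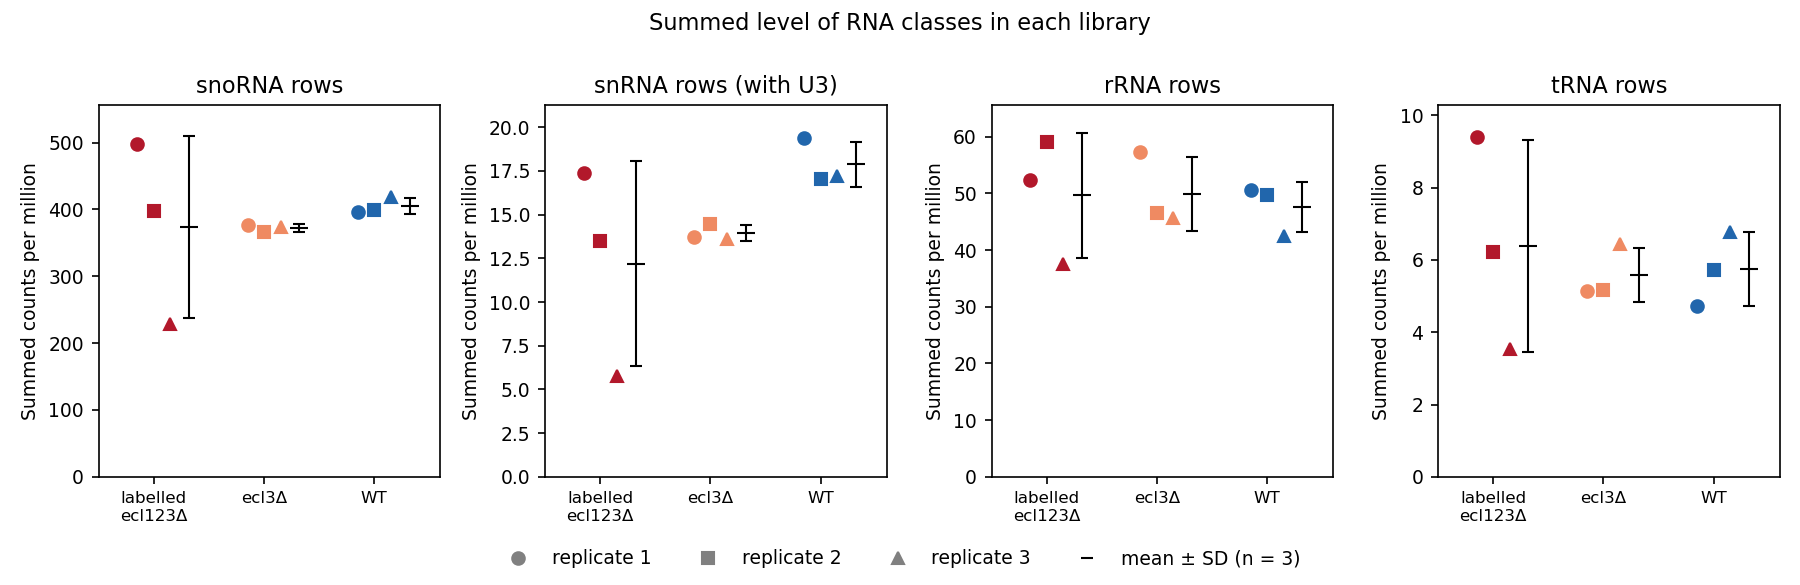
Summed CPM of the snoRNA, snRNA (with U3), rRNA and tRNA rows in each library, by strain, with the mean ± SD of 3 libraries; axes start at 0. Replicate 3 labelled *ecl123*Δ is the lowest of the 9 libraries in all 4 classes, and the *ecl3*Δ libraries lie below WT in the snoRNA and snRNA panels.

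The sum over all members gave a log2 ratio of -0.13 for the strain labelled *ecl123*Δ over WT, -0.13 for *ecl3*Δ over WT and 0.0021 for labelled *ecl123*Δ over *ecl3*Δ. Replicate 3 decided the first. Without it the log2 ratio was 0.13 over WT and 0.26 over *ecl3*Δ, and without replicate 1 it was -0.39 and -0.26. Leaving out 1 library at a time left *ecl3*Δ over WT between -0.14 and -0.11.

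The spread of the strain labelled *ecl123*Δ ran through nearly the whole family. Replicate 3 was the lowest of its 3 libraries for 41 of the 44 tested members, while it was the lowest for 38.0% of the 6012 other rows with at least 10 counts in each library. Its median ratio to the mean of replicates 1 and 2 was 0.414 over the members and 1.03 over those other rows. For 28 members the ratio was below 0.5, for 39 the library was below the lowest WT library, and for 37 it was the lowest of all 9 libraries. Replicate 1 was the highest of the 3 for 32 members. The median coefficient of variation of the members was 44.7% in the libraries labelled *ecl123*Δ, 16.6% in *ecl3*Δ and 11.8% in WT.

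The low level in replicate 3 was not uniform. snoR39a had a ratio of 0.107 to the mean of the other 2, with 2 counts against 25 and 12, and U6 had 0.112, with 3 counts against 32 and 20. Better counted members also differed, with snoR69b at 0.230 (61 counts against 233 and 267), snR3 at 0.299, sno52 at 0.307, sno20 at 0.355, snR30 at 0.542, snoU14 at 0.655 and snR95 at 0.700. snR101 was the single member at or above 1, with a ratio of 1.02.

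The tRNA and rRNA rows and some structured RNAs were also low in this library. Its ratio to the mean of replicates 1 and 2 was 0.45 for the summed tRNA rows and 0.67 for the rRNA rows. The 1527 other noncoding rows together fell less, with a ratio of 0.90 (11280, 11880 and 10440 CPM, against 12060 to 12430 in WT). tRNA rows summed to 9.40, 6.21 and 3.53 CPM in the libraries labelled *ecl123*Δ, against 4.73 to 6.77 in WT, and rRNA rows to 52.4, 59.1 and 37.6, against 42.5 to 50.5. *mrp1*, the RNA of RNase MRP, had 33.45, 32.8 and 18.01 CPM, against 40.3, 37.6 and 40.5 in WT. *rrk1*, the RNA of RNase P, had 7.05, 10.04 and 3.33, against 10.5, 9.93 and 15.1, and *srp7*, the RNA of the signal recognition particle, had 7.51, 5.61 and 2.74, against 4.88, 12.3 and 6.28. *ter1*, the telomerase RNA, differed less, with 13.7, 14.6 and 10.3, against 11.4, 12.4 and 13.7. The depth of replicate 3, 28866437 counts, lay between those of the other 2 libraries. The part of RNA quality or of the poly(A)+ selection in this pattern was not tested.

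**Figure D3:**
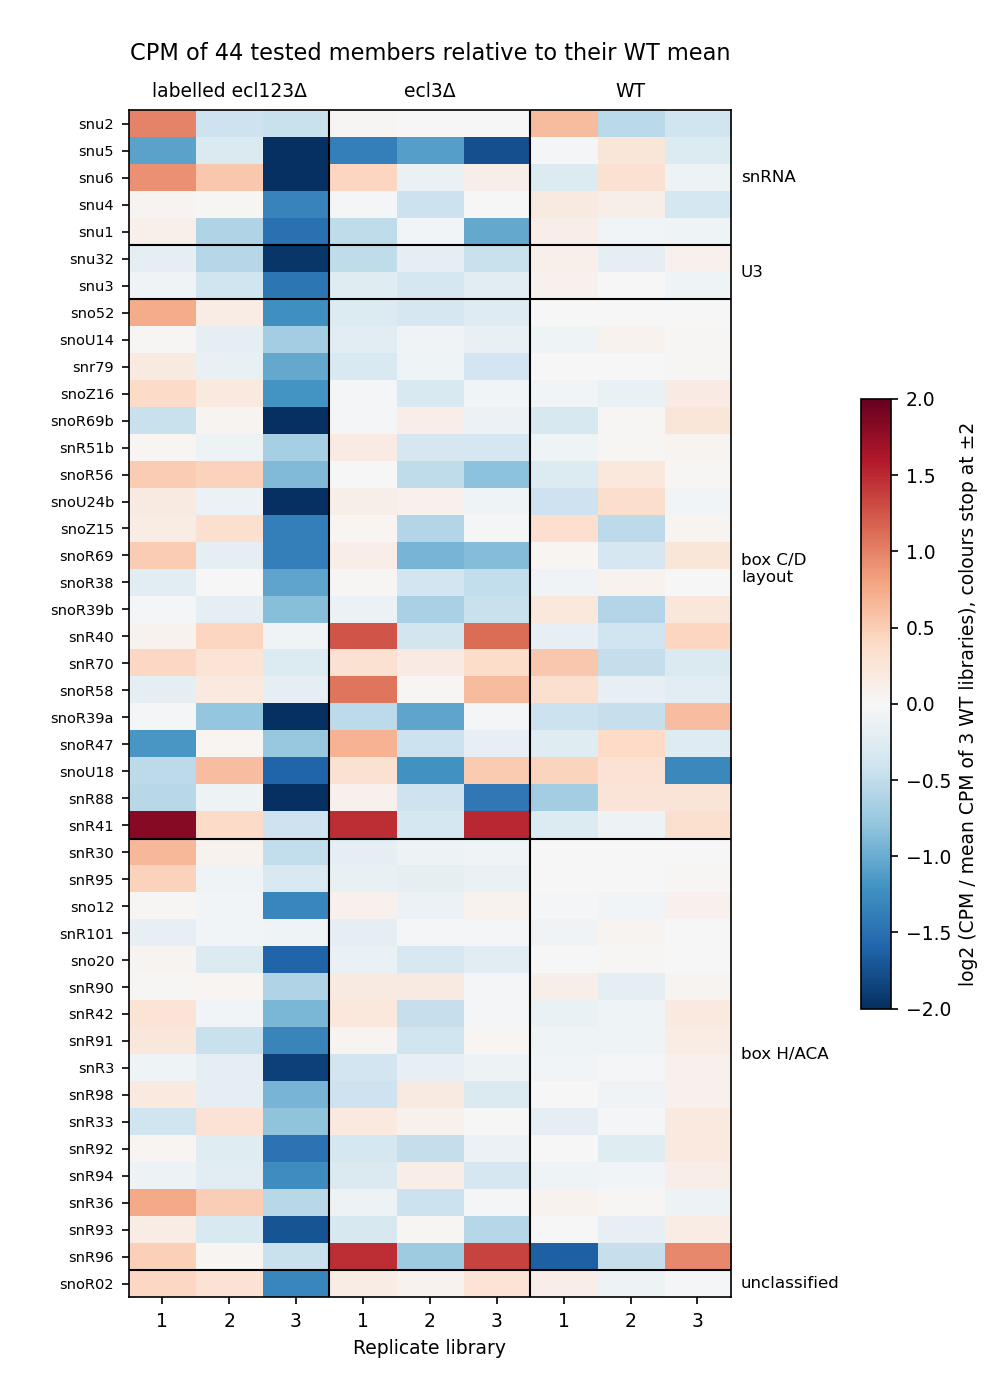
Log2 of each tested member's CPM over its mean in the 3 WT libraries, 1 row per member grouped by class and 1 column per library; colours stop at ±2. The column of replicate 3 labelled *ecl123*Δ is blue for nearly every member, snR101 being close to 0, and the *snu5* row is blue in all 6 mutant libraries.

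No member was called in any comparison in edgeR's quasi-likelihood test, 0 of 44 each time, a call being an adjusted p (Benjamini-Hochberg, over all rows tested) of 0.05 or less. The background of all 6257 rows tested was 1.18% called for the strain labelled *ecl123*Δ against WT, 0% for *ecl3*Δ against WT and 0.0639% for labelled *ecl123*Δ against *ecl3*Δ, so a count of 0 among 44 is near the background. At an unadjusted p under 0.05 there were 1, 1 and 0 of the 44 members, U5 in both cases. Of all rows tested, 19.9%, 1.61% and 10.7% were under it in the same order. DESeq2 also called 0 in each, of 49, 51 and 46 members with an adjusted p, and 1, 1 and 0 passed the unadjusted threshold. It called 551, 2 and 177 of the 6988 rows. The remark that 0 is near the background covers the edgeR calls only. Precision was lower for the members than for most genes. Their median biological coefficient of variation in the fit was 28.6%, against 12.7% over all rows tested, and the median standard error of their log2 fold change was 0.37, 0.36 and 0.36 in the 3 comparisons, against 0.13. Even a log2 fold change of -1.35 in U5 was not called, so a single member can differ by more than 2-fold without being detected here.

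Fold changes leaned downward. In the strain labelled *ecl123*Δ against WT the log2 fold change was negative for 32 of 44 members (72.7%, against 49.6% of all rows), with a median of -0.20 against 0.0021 over all rows and a range of -0.99 to 0.92. Without replicate 3 it was negative for 18 members, against 51.1% of all rows, with a median of 0.067, so the lean rests on that library. In *ecl3*Δ against WT it was negative for 29 of 44 (65.9%, against 51.2%), with a median of -0.13 against -0.0030 and a range of -1.35 to 1.08, and no library left out turned the median. In labelled *ecl123*Δ against *ecl3*Δ it was negative for 31 of 44 (70.45%, against 49.2% of all rows), with a median of -0.12. Without replicate 3 it was negative for 9 members, against 51.6% of all rows, with a median of 0.19. By class the medians against WT in the strain labelled *ecl123*Δ were -0.18 for box C/D layout, -0.21 for box H/ACA, -0.25 for snRNA and -0.60 for U3. Without replicate 3 they were 0.078, 0.018, 0.10 and -0.25, so that U3 alone kept a negative median. In *ecl3*Δ they were -0.13, -0.12, -0.10 and -0.31 for the same classes.

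In CPM, groups did not overlap in 4 of 44 members (9.09%), all lower, in the strain labelled *ecl123*Δ against WT, where the background was 15.2% of rows lower and 10.4% higher. The 4 were U5, *snu32*, snR94 and snR3. CPM leaves out the TMM normalization factors used in the test. These were 0.959, 1.002 and 1.02 in the libraries labelled *ecl123*Δ and 1.003 to 1.019 in WT. With the factors applied, all 4 overlap WT. In *ecl3*Δ, 9 members (20.5%) were lower than in WT in every library and 0 were higher, against a background of 7.03% lower and 3.23% higher. They were U5, both U3 rows, snR30, snR95, sno52, snr79, sno20 and snR3, so 5 of the 10 most abundant members are among them. With the TMM factors, *snu32* in 1 *ecl3*Δ library is about level with the lowest WT library. Their log2 fold changes, apart from that of U5, were -0.36 to -0.10 and within about 1 standard error each. No member separated labelled *ecl123*Δ from *ecl3*Δ, where the background was 4.28% lower and 6.84% higher. Without replicate 3, 8 members (18.2%) were higher than in WT, against a background of 19.1%, and 11 (25.0%) were higher than in *ecl3*Δ, against 15.4%. The comparisons with WT share the WT libraries, so their overlap is no independent evidence.

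U5, the snRNA that holds the exons during splicing, had the smallest p among members in both comparisons with WT. Its row had 26, 36 and 10 counts in the libraries labelled *ecl123*Δ, 24, 23 and 13 in *ecl3*Δ and 46, 49 and 51 in WT. In CPM this was 0.849, 1.45 and 0.346 in the libraries labelled *ecl123*Δ (0.882 ± 0.553, SD, n = 3), 0.688, 0.831 and 0.523 in *ecl3*Δ (0.681 ± 0.154) and 1.755, 2.11 and 1.46 in WT (1.775 ± 0.323). In CPM all 6 mutant libraries lay below all 3 WT libraries, although replicate 2 labelled *ecl123*Δ and replicate 3 of WT nearly met. CPM leaves out the TMM normalization factors used in the test, which are 1.002 and 1.019 for these 2 libraries. With the factors applied, the order of the 2 reverses, so the strain labelled *ecl123*Δ overlaps WT. The log2 fold change was -0.99 ± 0.44 (SE) in the strain labelled *ecl123*Δ against WT (edgeR adjusted p = 0.251) and -1.35 ± 0.45 in *ecl3*Δ against WT (edgeR adjusted p = 0.9998). Neither passed the threshold. Over 15 alternatives each, the first ranged from -1.51 to -0.60, the value of -0.60 being that without replicate 3, with adjusted p of 0.119 to 0.534, and the second from -1.50 to -1.20 with adjusted p of 0.341 to 1. The 2 mutant strains gave a log2 fold change of 0.36 ± 0.47 between them (edgeR adjusted p = 0.871).

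U3, which base-pairs with precursor rRNA in the cleavages that release the small subunit rRNA, was the next by p in the strain labelled *ecl123*Δ. *snu32* had 6.40, 4.92 and 1.91 CPM in the libraries labelled *ecl123*Δ, 5.13, 6.39 and 5.39 in *ecl3*Δ and 7.82, 6.41 and 7.75 in WT. In CPM all mutant libraries lay below WT, but 1 library of each mutant strain came close to the lowest WT library. With the TMM factors, replicate 1 labelled *ecl123*Δ lies above that WT library, and replicate 2 of *ecl3*Δ is about level with it. The log2 fold change was -0.70 ± 0.36 in the strain labelled *ecl123*Δ (edgeR adjusted p = 0.323) and -0.36 ± 0.36 in *ecl3*Δ (adjusted p = 0.9998). *snu3* had 5.84, 4.68 and 2.25 CPM in the libraries labelled *ecl123*Δ, 5.22, 4.84 and 5.31 in *ecl3*Δ and 6.56, 6.11 and 5.82 in WT. Replicate 1 labelled *ecl123*Δ just overlapped WT, and *ecl3*Δ did not. Its log2 fold changes were -0.50 ± 0.30 in the strain labelled *ecl123*Δ (edgeR adjusted p = 0.411) and -0.25 ± 0.30 in *ecl3*Δ. In the strain labelled *ecl123*Δ single libraries moved both rows. Without replicate 3 the log2 fold change was -0.33 for *snu32* and -0.18 for *snu3*, and without replicate 1 it was -1.11 and -0.83.

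The 4 other spliceosomal snRNAs had 101 to 307 counts over the 9 libraries. U2 had 69, 21 and 24 counts in the libraries labelled *ecl123*Δ, 40, 31 and 28 in *ecl3*Δ and 46, 18 and 30 in WT. U6, the only one of the 5 made by RNA polymerase III, had 32, 20 and 3 counts, 26, 14 and 15, and 12, 16 and 18 in the same order of strains. Groups overlapped for both. U1 had 16, 8 and 5 counts in the libraries labelled *ecl123*Δ, 12, 13 and 6 in *ecl3*Δ and 14, 11 and 16 in WT. U4 had 14, 11 and 5, then 15, 9 and 11, and 13, 11 and 12 in the same order. Without replicate 3 the log2 fold changes of U1, U2, U4 and U6 in the strain labelled *ecl123*Δ were -0.14, 0.53, 0.10 and 0.80. With it, those of the 4 against WT were between -0.48 ± 0.48 (U1) and 0.28 ± 0.62 (U6) in the strain labelled *ecl123*Δ and between -0.44 ± 0.48 (U1) and 0.19 ± 0.62 (U6) in *ecl3*Δ. These standard errors leave room for changes of 2-fold, so U5 was not shown to differ from the other snRNAs.

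The most abundant member, snR30, is needed for maturation of the small subunit rRNA in *S. cerevisiae*. It had 114, 75.4 and 51.4 CPM in the libraries labelled *ecl123*Δ, 63.1, 67.3 and 68.9 in *ecl3*Δ and 72.0, 72.4 and 72.1 in WT. WT was tight (72.1 ± 0.211, SD, n = 3), *ecl3*Δ lay just under it and the libraries labelled *ecl123*Δ spread to both sides. Its log2 fold changes were 0.19 ± 0.24 in the strain labelled *ecl123*Δ (0.44 ± 0.16 without replicate 3) and -0.10 ± 0.24 in *ecl3*Δ. sno52 had 59.3, 39.0 and 15.1 CPM in the libraries labelled *ecl123*Δ, 29.2, 27.8 and 29.4 in *ecl3*Δ and 35.4, 35.4 and 34.9 in WT. *ecl3*Δ lay below WT without overlap, and the libraries labelled *ecl123*Δ lay on both sides of it. The log2 fold change was 0.14 ± 0.37 in the strain labelled *ecl123*Δ (0.53 ± 0.16 without replicate 3, edgeR adjusted p = 0.0907) and -0.27 ± 0.37 in *ecl3*Δ (edgeR adjusted p = 0.9998). The sno52 row overlaps *taf9* on the opposite strand, as 9 members overlap an antisense row. The kit kept strand information, but the strand setting of the counting is not given in the sources used here, so reads of such partners may not be told apart.

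snoU14, which is needed for small subunit rRNA maturation in *S. cerevisiae*, had 35.1, 30.0 and 21.3 CPM in the libraries labelled *ecl123*Δ, 29.8, 33.0 and 31.2 in *ecl3*Δ and 32.4, 36.2 and 34.9 in WT, and the groups overlapped. snR101, by contrast, kept a narrow range in every strain, with 21.4, 23.1 and 22.7 CPM in the libraries labelled *ecl123*Δ, 21.3, 23.6 and 23.4 in *ecl3*Δ and 22.9, 25.0 and 24.2 in WT. Its log2 fold changes were -0.08 ± 0.09 in the strain labelled *ecl123*Δ and -0.06 ± 0.09 in *ecl3*Δ, the smallest standard errors among members. The other 6 of the 10 most abundant, snR95, sno12, sno20, snr79, snR90 and snoZ16, had log2 fold changes against WT of -0.42 to 0.09 in the strain labelled *ecl123*Δ (-0.06 to 0.34 without replicate 3) and -0.23 to 0.13 in *ecl3*Δ.

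**Figure D4:**
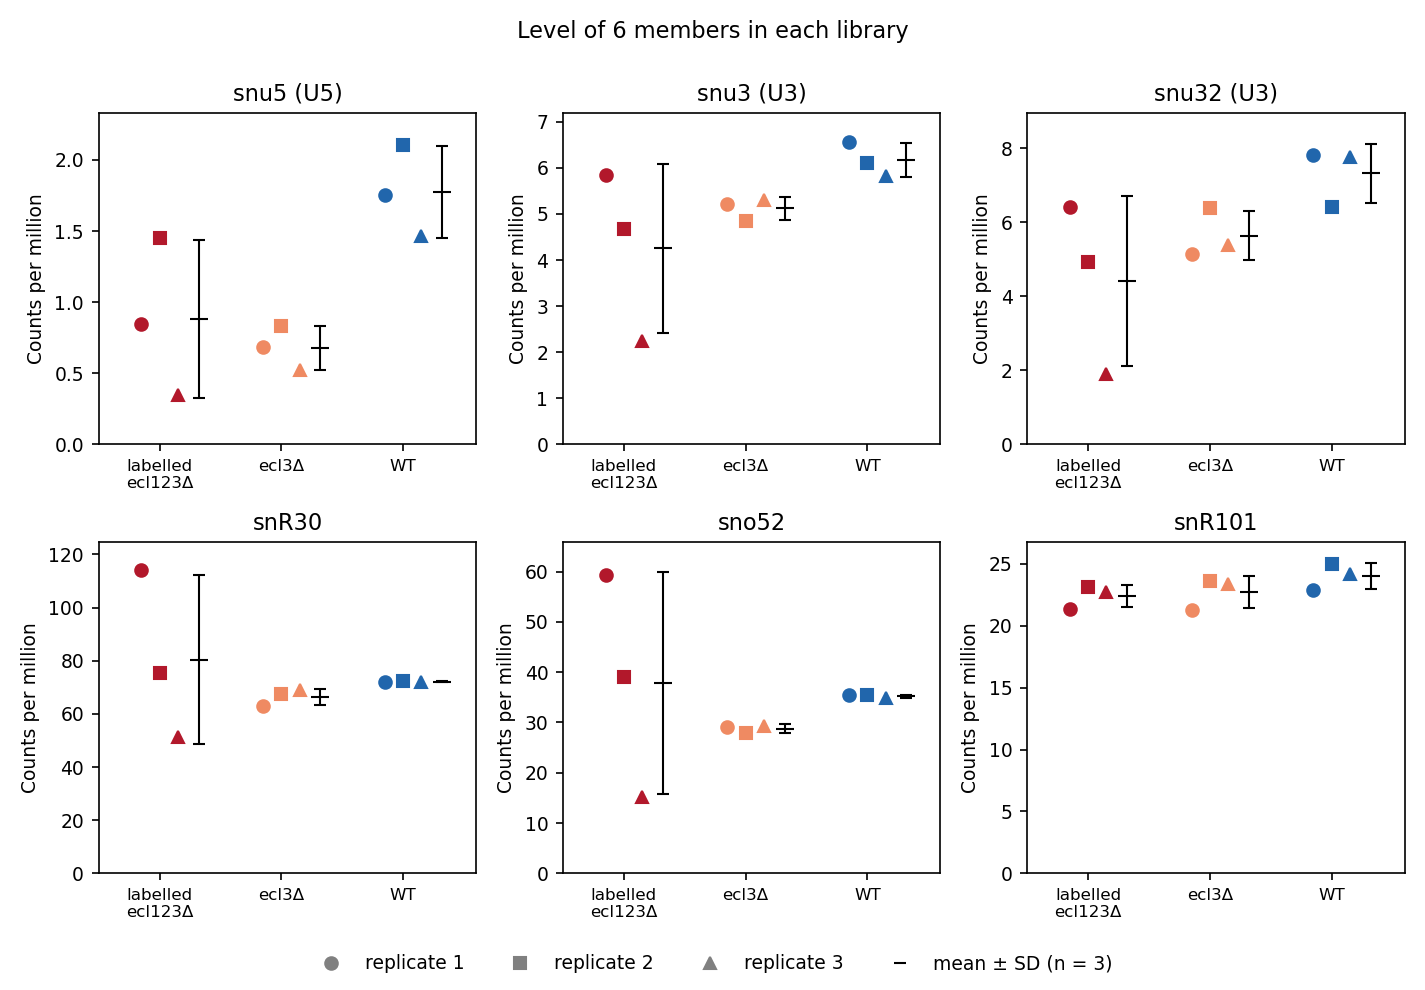
CPM of U5, both U3 rows, snR30, sno52 and snR101 in each library, by strain, with the mean ± SD of 3 libraries; axes start at 0. In CPM, which leaves out the TMM factors, U5 and *snu32* are lower in all 6 mutant libraries than in WT. With those factors the libraries labelled *ecl123*Δ overlap WT for both. snR30 and sno52 spread widely among the libraries labelled *ecl123*Δ, and snR101 keeps to 21.3 to 25.0 CPM throughout.

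The other members with the smallest p-values had low counts or replicates that disagreed. In the strain labelled *ecl123*Δ against WT they were snR94, at 4.44, 4.11 and 2.01 CPM against 4.50, 4.60 and 5.22 (log2 fold change -0.41 ± 0.30, edgeR adjusted p = 0.504), and snoU14 (-0.23 ± 0.17, adjusted p = 0.521). Both rest on replicate 3, without which they were -0.12 and -0.04, and without replicate 1 they were -0.64 and -0.42. In *ecl3*Δ against WT they were snR40, snoR58, snR41 and snR96, with positive log2 fold changes of 0.83 ± 0.42, 0.67 ± 0.36, 1.08 ± 0.74 and 0.93 ± 0.71. snR40, which guides ribose methylation of rRNA in *S. cerevisiae*, had 85, 22 and 55 counts in *ecl3*Δ, against 24, 18 and 48 in WT. snR41 had 18, 4 and 13 against 4, 4 and 8. In all 4 of these, replicates 1 and 3 of *ecl3*Δ were high and replicate 2 lay within the WT range, or below it for snR41. All had adjusted p = 0.9998. Between the strain labelled *ecl123*Δ and *ecl3*Δ the smallest p-values belonged to snoR58, snR36, snR40, snoR56 and snoR47, with log2 fold changes of -0.70 ± 0.36, 0.53 ± 0.31, -0.67 ± 0.42, 0.56 ± 0.38 and -0.69 ± 0.47 and edgeR adjusted p of 0.528 to 0.660. Without replicate 3 they were -0.63, 0.83, -0.56, 0.89 and -0.60.

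At the low end, snR5 and snR10, named after pseudouridylation guides of *S. cerevisiae*, each had 2 counts in all 9 libraries together. snR46 had 9, snoU24 had 11 and snr62 had 20. snoU24 is annotated at 47 bases, shorter than a read, and shares 10 bases at most in 1 run with snoU24b, which had 759 counts. No stretch of 51 bases is shared between any of the pairs that carry the same name root. For *snu32*, though, 19.5% of such stretches recur in the genome, in the U3 copy upstream of the annotated *snu3* row. snoU24 is too short to hold a stretch of 51 bases.

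The pairs snoR69b with snoR69 and snoR39a with snoR39b each share a run of 13 bases. They are shown so that the partners can be compared letter by letter, and capitals mark the run.
snoR69b: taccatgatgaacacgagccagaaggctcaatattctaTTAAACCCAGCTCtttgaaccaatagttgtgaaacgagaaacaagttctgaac
snoR69: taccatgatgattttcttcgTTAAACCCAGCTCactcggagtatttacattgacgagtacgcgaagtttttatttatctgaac
snoR39a: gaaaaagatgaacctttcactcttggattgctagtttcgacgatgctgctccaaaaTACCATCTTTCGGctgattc
snoR39b: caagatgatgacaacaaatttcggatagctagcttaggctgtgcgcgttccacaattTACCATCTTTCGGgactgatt

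Within these pairs the levels differed. Per 1000 bases, snoR69b had a mean of 101 CPM and snoR69 24.6, and snoR39b had 19.8 and snoR39a 8.21. snoR39a lies in an intron of *rlp7* and snoR39b in an intron of *rpl701*, which encode a ribosome assembly protein and a ribosomal protein of the large subunit, while snoR69b and snoR69 lie in none of the arrangements above.

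The protein genes that make and mature these RNAs were taken from lists of box C/D and box H/ACA core proteins, assembly factors, the Sm and LSm rings, U1 snRNP proteins, nuclear 3′ end processing and exosome factors, and cap hypermethylation. Of 69 listed genes 67 were tested and none was called in any comparison by edgeR, 0 of 67 each time, with 13, 0 and 1 at an unadjusted p under 0.05 for the strain labelled *ecl123*Δ over WT, for *ecl3*Δ over WT and for labelled *ecl123*Δ over *ecl3*Δ. These are 19.4%, 0% and 1.49% of the listed genes, against 19.9%, 1.61% and 10.7% of all rows tested, so none of the 3 shares is above its background. DESeq2 called 2, 0 and 0 of the listed genes, against 551, 2 and 177 of all 6988 rows, so none of these shares is above its background. The 2 were *nop56* (log2 fold change 0.22 ± 0.07, DESeq2 adjusted p = 0.0154) and *mtr3* (-0.41 ± 0.14, DESeq2 adjusted p = 0.0341). For these 2 genes the call depends on the tool. Median log2 fold changes were 0.051, 0.037 and 0.018. In the strain labelled *ecl123*Δ the smallest p-values among the core proteins belonged to *nop56* (846 ± 22.3 CPM, against 744 ± 8.44 in WT, adjusted p = 0.160) and *nop58* of the box C/D particle and to *cbf5*, the pseudouridine synthase (1027 ± 40.2, against 910 ± 15.7, adjusted p = 0.204) and *gar1* of the H/ACA particle. Log2 fold changes of the 4 were 0.21 ± 0.07, 0.18 ± 0.08, 0.20 ± 0.08 and 0.15 ± 0.10. The assembly factors *bcd1* and *naf1* had 0.26 ± 0.08 and 0.27 ± 0.10. Without replicate 3 these 6 values were 0.21, 0.13, 0.18, 0.21, 0.29 and 0.20, and 25 of the 67 genes (37.3%, against 28.0% of all rows) had an unadjusted p under 0.05, again with 0 called by edgeR.

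Of the 31 genes of the processing and exosome list, 7 had an unadjusted p under 0.05 in the strain labelled *ecl123*Δ against WT. This is near the background of 19.9% of all rows tested. Of the 7, 5 had a positive and 2 a negative log2 fold change, and the list median was 0.087. The 5 were *dis3* and *mtr4*, a catalytic exosome subunit and an exosome helicase (0.35 and 0.34), *cid14*, a nuclear poly(A) polymerase (0.27), *dhp1*, a nuclear exonuclease (0.27), and *cti1* (0.17), and without replicate 3 they were 0.18, 0.14, 0.20, 0.14 and 0.16. The 2 smallest p-values of the list were those of the negative genes. The exosome subunit gene *mtr3* had 101 ± 9.57 CPM in the libraries labelled *ecl123*Δ and 138 ± 6.93 in WT (log2 fold change -0.42 ± 0.12, edgeR adjusted p = 0.106). *swd22*, of the cleavage and polyadenylation machinery, had 47.3 ± 5.74 and 60.1 ± 2.09 (-0.33 ± 0.10, adjusted p = 0.121), and in the LSm list *lsm4* had 121 ± 5.35 and 143 ± 2.13 (-0.22 ± 0.08, adjusted p = 0.150). The genes with the smallest p in the remaining lists, *sme1* and *smg1* of the Sm ring, *lsm2*, *usp103* and *usp107* of U1, and the cap methylase gene *tgs1*, had log2 fold changes of -0.21 to 0.15 and adjusted p of 0.292 to 0.695, and of -0.14 to 0.26 without replicate 3. Of the 4 other structured noncoding RNAs none was called, with *rrk1* at -0.78 ± 0.33 (edgeR adjusted p = 0.233) and *mrp1* at -0.46 ± 0.21 (adjusted p = 0.264) in the strain labelled *ecl123*Δ against WT, both lowest in replicate 3. Without it they were -0.44 and -0.21.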

How the data were processed

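Poly(A)+ RNA-seq counts of 9 libraries, 3 per strain, were analysed. The authors prepared strand-specific libraries, mapped paired reads of 51 bases with HISAT2 2.1.0, processed the alignments with SAMtools and counted reads over exons with HTSeq 0.10.0 on build ASM294v2, and used DESeq2. The deposited values are whole-number counts per gene, not normalized. Their DESeq2 tables (fold changes and p-values) were not used, and the number of sample columns set aside was 0. Library totals were 23254907 to 34871124.

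Strains came from the labels, and members from their systematic IDs. The members and the gene lists were chosen with earlier results of these data known. Names, sequences and gene arrangement came from RefSeq ASM294v3, which is not the build of the counts, so no coordinates are given. All 60 members matched by ID. CPM is counts per 1000000 counts of the library, and CPM per 1000 bases divides it by the RefSeq length.

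Rows were kept with filterByExpr of edgeR 4.0.16 (6257 of 6988, 44 of 60 members), normalized by TMM and tested by the quasi-likelihood test in 1 fit of 9 libraries, with Benjamini-Hochberg adjustment over all rows and a call at 0.05, in R 4.3.3. A second call rule, with a fold change of 2 and a mean normalized count of 100 as further limits, can only remove calls. Standard errors came from the fitted weights. The functions were tested on simulated counts. Members named were U1 to U6 and U3, the 10 highest by mean CPM, the 5 smallest p in each comparison and the 5 lowest totals above 0, and, in gene lists, the 2 smallest p. Others were named after their values were seen, in the detection, non-overlap, replicate and exosome list results. Alternatives were RLE factors, library size alone, no filter, DESeq2 1.42.0, 2-strain fits, a replicate block and leaving out each library, and for the summed CPM other totals and subsets of members. The study calls its libraries biological replicates without saying more, so p-values measure the spread between these libraries. The strand and ambiguous-read settings of HTSeq are not given in the sources used here.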

Additional observations from a re-analysis of the deposited data

How the results depend on the processing

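Members called stayed at 0 in each comparison, higher and lower, under all 15 alternatives. Alternative values for single members cover only those with the 5 smallest p in each comparison, chosen from the same data. All 224 of these values kept their direction and stayed on the same side of the threshold. Directions of other members were not all stable. Without replicate 3 labelled *ecl123*Δ, members with a negative log2 fold change against WT fell from 32 of 44 to 18. Leaving out 1 library at a time gave median log2 fold changes of the members from -0.42 to 0.067 for the strain labelled *ecl123*Δ against WT, -0.16 to -0.088 for *ecl3*Δ against WT and -0.41 to 0.19 for labelled *ecl123*Δ against *ecl3*Δ. Log2 ratios of the summed CPM ranged from -0.39 to 0.13, -0.14 to -0.11 and -0.26 to 0.26 in the same order. Both positive ends came without replicate 3 labelled *ecl123*Δ. That alternative was added after seeing the data for 2 further counts and for the classes and gene lists. Members with a negative log2 fold change then numbered 18 against WT and 9 against *ecl3*Δ, where 51.1% and 51.6% of all rows were negative. Members higher without overlap in CPM numbered 8 and 11, which is 18.2% and 25.0%, against 19.1% and 15.4% of all rows tested. The added fits have fewer libraries and lack the lowest one. Without the most abundant member, the summed ratio of labelled *ecl123*Δ over *ecl3*Δ was -0.062, against 0.0021 with it.

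Replicate numbers did not pair the libraries, since correlations of same-numbered deviations were -0.18 to 0.22 over the 9 pairs. With a replicate block the median log2 fold changes were -0.25, -0.13 and -0.16 in the 3 comparisons, 0 members were called, and U5 had adjusted p of 0.174 against WT in the strain labelled *ecl123*Δ.

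Depth limits the low members. U1, U4 and U6 had 3 to 32 counts in a library, and 16 members were not tested. Low totals, 3 libraries a strain and 1 library that stood apart limit what can be detected in the snRNA rows. Changes of more than 2-fold can go undetected there, since the log2 fold change of -1.35 of U5 in *ecl3*Δ against WT was not called. Counts of members inside exons of other rows, and of the 9 with an antisense row, depend on counting settings not given in the sources used here.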
